A study of Mus musculus with 8 samples.

Results

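The genes that bring secretory proteins into the endoplasmic reticulum (ER), remove their signal peptides and attach N-linked glycans were examined in Paneth cells, which sit at the bottom of small intestinal crypts and release antimicrobial proteins. The set held 34 genes, chosen by symbol from the known subunits of this machinery. All 34 were found among the 55414 Ensembl gene IDs of the count table. They comprised 8 genes of the signal recognition particle (SRP) and its receptor, 12 of the Sec61 channel and its partners, 5 of signal peptidase and 9 of oligosaccharyltransferase (OST). The mice were wild type and received either phosphate-buffered saline (PBS, the control) or tumor necrosis factor (TNF, an inflammatory cytokine). Their small intestines were taken 3 hours later, and Paneth cells were purified on a cell sorter. There were 4 PBS and 4 TNF libraries, and the comparison asks what TNF does to Paneth cell expression at that time. The labels name neither dose, age nor sex, and do not say that each library came from 1 animal, although the methods describe sorting cells from individual mice. The p-values measure the spread between these libraries.

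Proteins bound for secretion carry a signal peptide that SRP binds as it leaves the ribosome, and SRP then docks on its receptor at the ER membrane. The chain passes through the Sec61 channel, signal peptidase cuts off the signal peptide, and OST transfers a preassembled glycan to asparagines of the entering chain. Paneth cells pack granules with alpha-defensins and lysozyme, all of which enter the secretory route through this machinery, and genes of ER folding are classical targets of the unfolded protein response.

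Promoter sequence was examined first, because a shared element of the unfolded protein response would place these genes beside the ER folding genes. RefSeq promoters (250 bases before to 50 after a gene's start, table build GRCm38.p6) were found for 25 of the 34 genes. The genes without an entry were Srp19, Srp68, Sec61a1, Ssr2, Tram1, Hspa13, Spcs3, Sec11c and Ostc. The ER stress response element ERSE (CCAAT, 9 bases of any kind, then CCACG, on either strand) matched 0 of the 25 promoters, 37 of 27025 promoters of all genes (0.137%) and 7 of 13 promoters of ER folding genes (53.85%). ERSE-II (ATTGG, 1 base of any kind, CCACG) matched 0 of the 25, 12 of all (0.0444%) and 1 of 13 ER folding promoters, and UPRE (TGACG followed by TGG) matched 0 of the 25, 193 of all (0.714%) and 0 of the 13. A match is a description of letters and not a binding site. The ERSE matches of the folding genes that differed between TNF and PBS are shown here with their GRCm39 positions, 5′ to 3′ on the strand that carries the motif, with the motif's fixed letters in capitals.
Hspa5, chr2:34662037-34662055: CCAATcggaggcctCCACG
Hsp90b1, chr10:86541502-86541520: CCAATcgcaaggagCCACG
Hsp90b1, chr10:86541397-86541415: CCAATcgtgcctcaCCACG
Pdia6, chr12:17316492-17316510: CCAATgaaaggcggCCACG
Dnajc3, chr14:119175239-119175257: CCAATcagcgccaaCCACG
Creld2, chr15:88703723-88703741: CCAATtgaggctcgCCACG

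After those motifs gave no match, the 6-base core CCACGT was searched on both strands. Its reverse complement lies inside UPRE. It matched 5 of the 25 promoters (20%), against 2539 of all promoters (9.395%) and 4 of 13 ER folding promoters (30.77%). These are the only promoters of the set with any searched motif, and so the 200 bases before the start of each are printed 5′ to 3′ on the gene's strand, with the core in capitals. Positions are GRCm39, found by a single exact match of the RefSeq sequence. Ssr1 held 2 cores and the other genes 1 each.
Srprb, chr9:103079265-103079464, strand -: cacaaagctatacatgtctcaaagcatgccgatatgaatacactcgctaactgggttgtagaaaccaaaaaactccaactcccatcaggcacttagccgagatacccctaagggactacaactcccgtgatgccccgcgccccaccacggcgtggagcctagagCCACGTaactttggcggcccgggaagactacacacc
Sec63, chr10:42637292-42637491, strand +: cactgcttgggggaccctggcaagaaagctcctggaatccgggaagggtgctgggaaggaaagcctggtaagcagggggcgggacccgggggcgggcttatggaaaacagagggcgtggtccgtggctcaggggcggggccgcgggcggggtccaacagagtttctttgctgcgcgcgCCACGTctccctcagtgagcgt
Ssr1, chr13:38178185-38178384, strand -: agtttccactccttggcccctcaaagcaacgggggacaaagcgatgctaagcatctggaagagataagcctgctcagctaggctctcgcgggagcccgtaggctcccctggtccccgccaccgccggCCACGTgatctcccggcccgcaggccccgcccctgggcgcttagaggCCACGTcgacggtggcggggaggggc
Ssr3, chr3:65299975-65300174, strand -: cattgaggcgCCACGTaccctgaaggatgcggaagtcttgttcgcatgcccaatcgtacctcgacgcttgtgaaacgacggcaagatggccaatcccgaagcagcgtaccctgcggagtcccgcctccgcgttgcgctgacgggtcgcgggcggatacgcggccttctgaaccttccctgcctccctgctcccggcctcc
Spcs1, chr14:30723624-30723823, strand -: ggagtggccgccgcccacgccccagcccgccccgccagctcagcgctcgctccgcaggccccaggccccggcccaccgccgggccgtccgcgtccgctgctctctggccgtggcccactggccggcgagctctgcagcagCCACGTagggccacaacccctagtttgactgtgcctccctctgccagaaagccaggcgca

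The distance of the core from the start differed between these genes. In Sec63 it ended 17 bases before the start and in Ssr3 185 bases before it. None of the 3 genes that differed between TNF and PBS (Sec61g, Srpr and Sec62) carried a searched motif.

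Library depth was 23824717 to 32576077 counts. Values are normalized CPM, which are counts scaled to a common library size with TMM factors (edgeR's correction for composition), and levels are compared between genes as normalized CPM per kb of transcript. Ratios of counts between paired subunits are not corrected for length and serve only to compare PBS with TNF. Paneth cell products dominated every library, with alpha-defensin genes, Lyz1 and Itln1 taking 54.2% to 62.1% of counts in 7 libraries. TNF replicate 4 stood apart with 75.2%, a TMM factor of 0.448 against 0.995 to 1.36 elsewhere, and a second principal component score of 63.9 against -29.1 to 4.22. Results are therefore given with and without it. All 7 Paneth cell markers were present, and Pla2g2a (1.01), Nupr1 (0.81) and Sox9 (0.67) were called higher in TNF. Among the immune markers Cd3e and Cd79a had no count, and the summed immune level was 7.31 to 13.0 normalized CPM in PBS and 10.8 to 13.9 in TNF replicates 1 to 3, with 68.7 in TNF replicate 4, of which Lyz2 made up most. Only 2 immune markers were tested, and 1 of them, not Lyz2, was called higher in TNF. The summed enteroendocrine level was 10.3 to 13.2 in PBS and 30.3 to 61.0 in TNF, and the summed goblet level 3681 to 5938 and 6391 to 7626. Of the 7 goblet markers, Muc2, the highest of them, and Spdef were called higher, and Fcgbp (-1.53) and Clca1 were called lower. For Clca1 PBS replicate 1 alone had 554, the other PBS libraries 41.1 to 44.0 and TNF 23.95 to 42.2. The summed enterocyte level, mostly Vil1, was 272 to 305 and 294 to 321, with 7 of 8 markers negative and Apoa4 called lower (-3.94). The summed stroma level was 0.26 to 0.452 and 1.23 to 1.70, with Col3a1 at 0, and the 1 stroma marker that was tested was called higher. Stem cell markers Lgr5, Ascl2, Smoc2 and Axin2 were lower in TNF, while Olfm4 and Slc12a2 did not pass the test. The part of these differences in the results was not tested. In sorted bulk RNA, fewer cells of a type and less RNA per cell cannot be told apart.

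Every gene of the set was expressed, but at very unequal levels. Per kb of transcript, Ssr3 was highest in PBS, at 137 ± 16.1 normalized CPM per kb (SD, n = 4). It encodes the gamma subunit of the translocon-associated protein (TRAP) complex, which assists entry of some signal peptides. Sec11c (135 ± 8.87), a catalytic subunit of signal peptidase, Rpn2 (122 ± 13.7), a core subunit of OST, and Sec61a1 (106 ± 17.1), the channel itself, followed. Neighbors in this order differed by less than the larger of their SDs. The same 4 genes were highest when canonical transcript lengths were used.

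At the other end were Sec61a2, at 0.515 ± 0.17 per kb, and Srp54a, at 1.47 ± 0.0992. Sec61a2 encodes a second form of the channel subunit and had as few as 43 counts in a library. Srp54a, the SRP subunit that binds the signal peptide, shares most of its sequence with Srp54b and Srp54c. Only 25.2% of its 75-base stretches occur in no other gene. Srp54b had 0 counts in every library and Srp54c 127 to 558, and it is not stated how reads of shared sequence were assigned, so the Srp54a level is uncertain. With the copies summed, the log2 fold change was 0.17 in place of 0.05, with neither past the test. Counting by strand is not stated either, which leaves Ost4 (28.9% of stretches unique), Sec61a2 (34.9%), Ddost (51.8%) and Srpr (78.5%) uncertain where genes on the opposite strand overlap them. Srpr also shares stretches with Gm6733 and Gm7593, which do not overlap it, so reads of shared sequence leave it uncertain too. The Sec61g level per kb, 3.86 ± 0.798, is based on an annotated transcript of 2065 bases for a coding length of 300 bases.

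**Figure D1:**
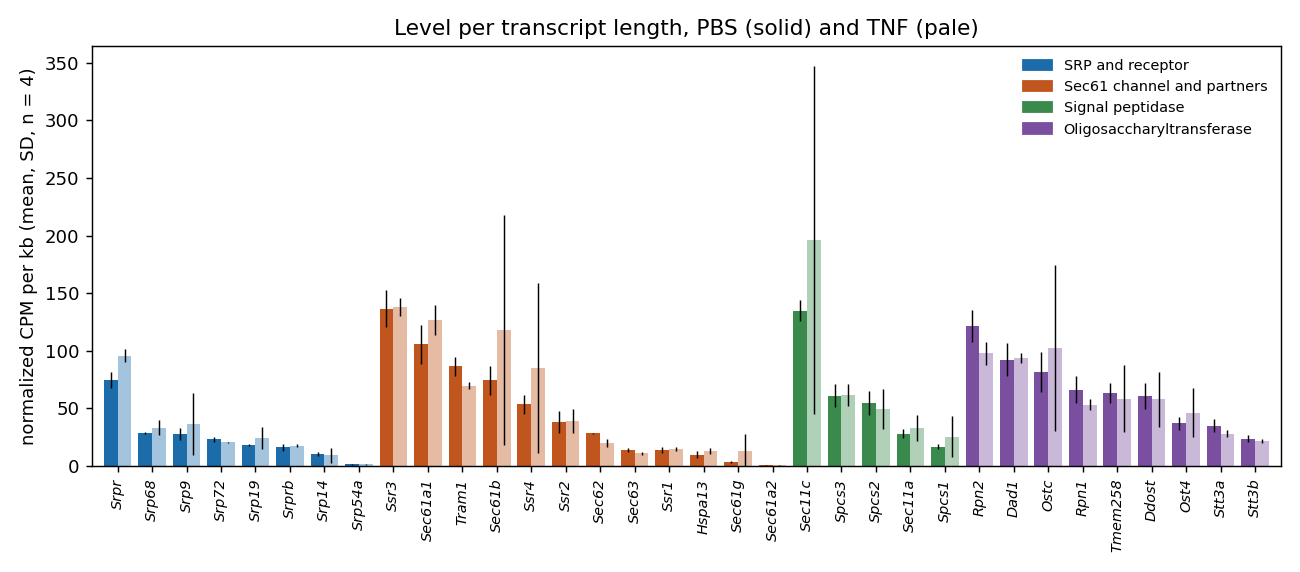
Bars give the mean level of each of the 34 genes in normalized CPM per kb of transcript, with SD over 4 libraries, for PBS (solid) and TNF (pale), colored by complex. Ssr3, Sec11c, Rpn2 and Sec61a1 lead in PBS at 106 to 137, Sec61a2 and Srp54a lie near 0, and the wide TNF error bars of Sec11c, Sec61b and Ssr4 come with 1 high library, TNF replicate 4.

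Summed over the set, these genes held a share of counts of 0.5003% ± 0.0394 with PBS and of 0.384% ± 0.0859 with TNF (SD, n = 4). TNF replicate 4 was lowest, at 0.259%. The difference was -0.117 percentage points, and -0.0754 without that library. With the alpha-defensin genes, Lyz1 and Itln1 left out of the total, the shares were 1.20% ± 0.118 and 1.02% ± 0.0547. These shares are a description and were not tested.

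TNF against PBS was tested for 13368 genes, all 34 of the set among them, with edgeR's quasi-likelihood test, and a gene was called at an adjusted p (Benjamini-Hochberg over all genes) under 0.05. Few genes of the set were called. Sec61g and Srpr were higher and Sec62 was lower, 3 of 34 (8.82%), while 43% of all tested genes were called (23.4% higher and 19.6% lower). The median log2 fold change was 0.09 in the set and 0.03 over all genes. An unadjusted p under 0.05 by edgeR was found for 6 of 34 genes, against 6759 of all 13368 tested. PBS and TNF values did not overlap for 5 of 34 genes, against 42.1% of all tested genes. These were the 3 called genes together with Tram1 and Srp72.

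The size of change that the data allow can be read from the 95% intervals. The interval lay within a 2-fold change in either direction for 27 of 34 genes (79.4%) and for 54.4% of all tested genes. It lay within 1.5-fold for 11 genes (32.4%), against 21.6%. Only Sec61g had an estimated change over 2-fold, which is 2.94% of the set, against 19% of all tested genes. The median SE was 0.19 both in the set and over all genes.

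**Figure D2:**
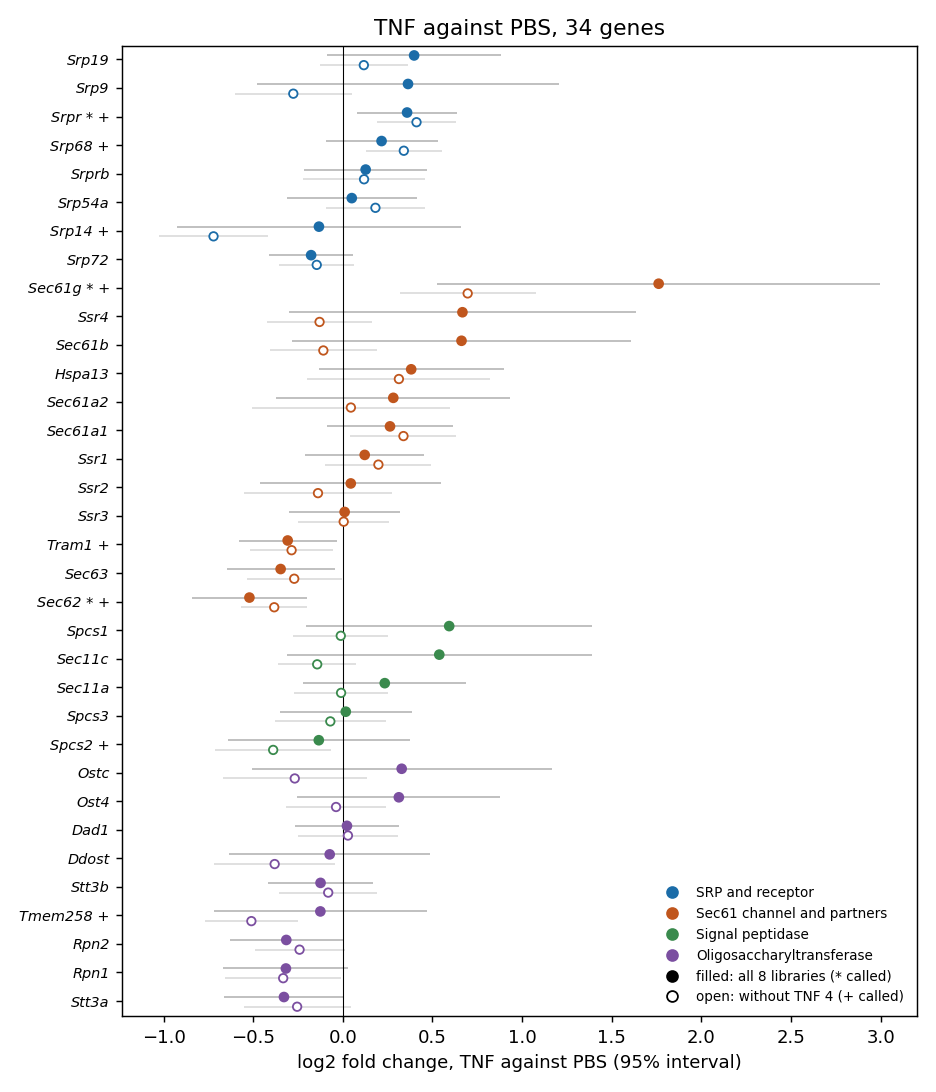
Log2 fold change of TNF against PBS (x axis, bars 95% intervals) for the 34 genes, by complex. Filled points use all 8 libraries, with called genes starred, and open points leave out TNF replicate 4, with called genes marked +. Sec61g reaches 1.76 with all libraries and 0.70 without TNF replicate 4, and the signal peptidase genes move from a median of 0.23 to -0.07.

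Among SRP genes, 1 of 8 was called, higher (12.5%, against 43% of all tested genes, 23.4% higher), with a median log2 fold change of 0.17. The called gene was Srpr (Srpra in GENCODE, chr9:35111471-35172234, GRCm39), the receptor subunit that docks SRP and hydrolyzes GTP. Its normalized CPM in PBS replicates 1 to 4 was 235, 242, 240 and 199, and in TNF replicates 1 to 4 it was 295, 308, 301 and 270. Every TNF value lay above every PBS value, and PBS replicate 4 was the lowest. The log2 fold change was 0.36 (SE 0.13, adjusted p = 0.0394 by edgeR). It was near 0 (-0.0016) when scaled by library size alone, and it was no longer called when any library other than TNF replicate 4 was left out (adjusted p 0.0711 to 0.193).

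The membrane anchor of that receptor, Srprb, had 54.5, 56.3, 53.7 and 35.2 in PBS and 56.8, 56.9, 47.2 and 57.3 in TNF. The groups overlapped, with 1 low library in each. The ratio of Srprb to Srpr within a library was 0.216 ± 0.0267 with PBS and 0.187 ± 0.0231 with TNF (SD, n = 4). The log2 ratio was lower by -0.21 in TNF, which did not pass a two-sided exact permutation test (p = 0.171, adjusted over 5 pairs 0.333; the smallest p for 4 against 4 libraries is 0.0286, which for a single low ratio of the 5 adjusts to 0.143).

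The remaining SRP subunits were not called. Srp72, which with Srp68 forms the large protein dimer of the particle, was 79.0 to 95.5 in PBS and 72.2 to 77.2 in TNF, without overlap (log2 fold change -0.18, adjusted p = 0.203 by edgeR). Srp68 was 71.2 to 74.6 in PBS, and in TNF it was 91.8, 80.6, 102 and 64.3. TNF replicate 4 was the single TNF library below PBS. Srp14, which with Srp9 arrests elongation while SRP is bound, was 29.2 to 43.8 in PBS, and in TNF it was 23.4, 22.5, 21.7 and 70.9. Here TNF replicates 1 to 3 lay below every PBS value and TNF replicate 4 above them all.

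Left without TNF replicate 4, Srp68 was called higher (0.34, adjusted p = 0.0123 by edgeR) and Srp14 lower (-0.72, adjusted p = 0.00122). Srp9 went from 0.36 with all libraries to -0.28 without that library, and Srp19, which helps assemble the particle, from 0.40 to 0.12. None of these was called.

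Among the 12 genes of the channel and its partners, 1 was higher and 1 lower (16.7% called, against 43% of all tested genes), with a median log2 fold change of 0.19. Sec61g (chr11:16450320-16458507, GRCm39) encodes the small gamma subunit of the channel. It had 8.04, 7.88, 10.01 and 5.97 normalized CPM in PBS and 12.8, 14.7, 10.7 and 72.0 in TNF. All TNF values lay above all PBS values, narrowly for TNF replicate 3, and TNF replicate 4 was several times higher than any other library. The log2 fold change was 1.76 (SE 0.56, adjusted p = 0.0261 by edgeR). Without TNF replicate 4 it was 0.70 (SE 0.17, adjusted p = 0.00582). It was not called without PBS replicate 2 (adjusted p = 0.0587) or PBS replicate 4 (0.0618). Nor was it called under library size alone, limma-voom or a fit with the replicate number as a block. Of its 75-base stretches, 86.5% occur in no other gene.

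The other channel subunits did not pass the test. Sec61a1 was 356, 372, 360 and 255 in PBS and 428, 443, 389 and 350 in TNF, a log2 fold change of 0.26 (95% interval -0.09 to 0.62). TNF replicates 1 to 3 lay above every PBS value, and TNF replicate 4 overlapped them. Sec61a2 was 1.63, 1.60, 1.69 and 2.94 in PBS and 2.16, 2.01, 1.93 and 3.86 in TNF. In both groups replicate 4 was the highest by a clear margin. The ratio of Sec61a2 to Sec61a1 was 0.00633 ± 0.0035 in PBS and 0.00646 ± 0.00314 in TNF (SD, n = 4), a log2 difference of 0.06 (exact permutation p = 0.629, adjusted 0.786). Sec61b, the beta subunit, was 70.8 to 104 in PBS and 76.5 to 91.2 in TNF replicates 1 to 3, while TNF replicate 4 had 330.

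Sec62 (chr3:30847022-30876314, GRCm39) and Sec63 help open the channel, in particular for short precursors, and Sec63 recruits the chaperone BiP to it. Sec62 was the lower gene. It had 138, 139, 139 and 143 in PBS and 104, 105, 110 and 70.8 in TNF. The PBS libraries were nearly equal, every TNF value lay below them, and TNF replicate 4 was lowest. The log2 fold change was -0.52 (SE 0.15, adjusted p = 0.0140 by edgeR), and -0.38 (adjusted p = 0.00262) without TNF replicate 4. Sec62 was called in each fit that left out 1 library, with adjusted p 0.00262 to 0.0462, but not when scaled by library size alone.

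Sec63 had 85.0, 78.3, 74.0 and 102 in PBS and 69.0, 63.5, 76.1 and 57.8 in TNF. The groups overlapped through TNF replicate 3, and the log2 fold change was -0.35 (SE 0.14, adjusted p = 0.061 by edgeR). Without TNF replicate 3 it was called (-0.41, adjusted p = 0.0484). The ratio of Sec62 to Sec63 was 1.67 ± 0.206 in PBS and 1.45 ± 0.175 in TNF (SD, n = 4), a log2 difference of -0.20 (exact permutation p = 0.2, adjusted 0.333). A difference in response between these partners did not pass this test.

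None of the channel's other partners was called with all libraries. Tram1, which lines the route of some signal peptides, was 226 to 282 in PBS and 199 to 220 in TNF, without overlap. Its log2 fold change was -0.31 (adjusted p = 0.0662 by edgeR), and -0.29 (adjusted p = 0.0396) without TNF replicate 4. Of the TRAP subunits, Ssr3 had 414, 451, 413 and 338 in PBS and 404, 425, 375 and 424 in TNF. Its groups overlapped fully, and its log2 fold change of 0.01 had a 95% interval of -0.30 to 0.32. Ssr1 (0.12) and Ssr2 (0.04) were not called. Ssr4 was 144 to 206 in PBS and 150 to 185 in TNF replicates 1 to 3, and TNF replicate 4 had 662. Hspa13, an ER-associated Hsp70 family member, was 23.5 to 50.4 in PBS and 40.2 to 64.7 in TNF (0.38, adjusted p = 0.213).

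**Figure D3:**
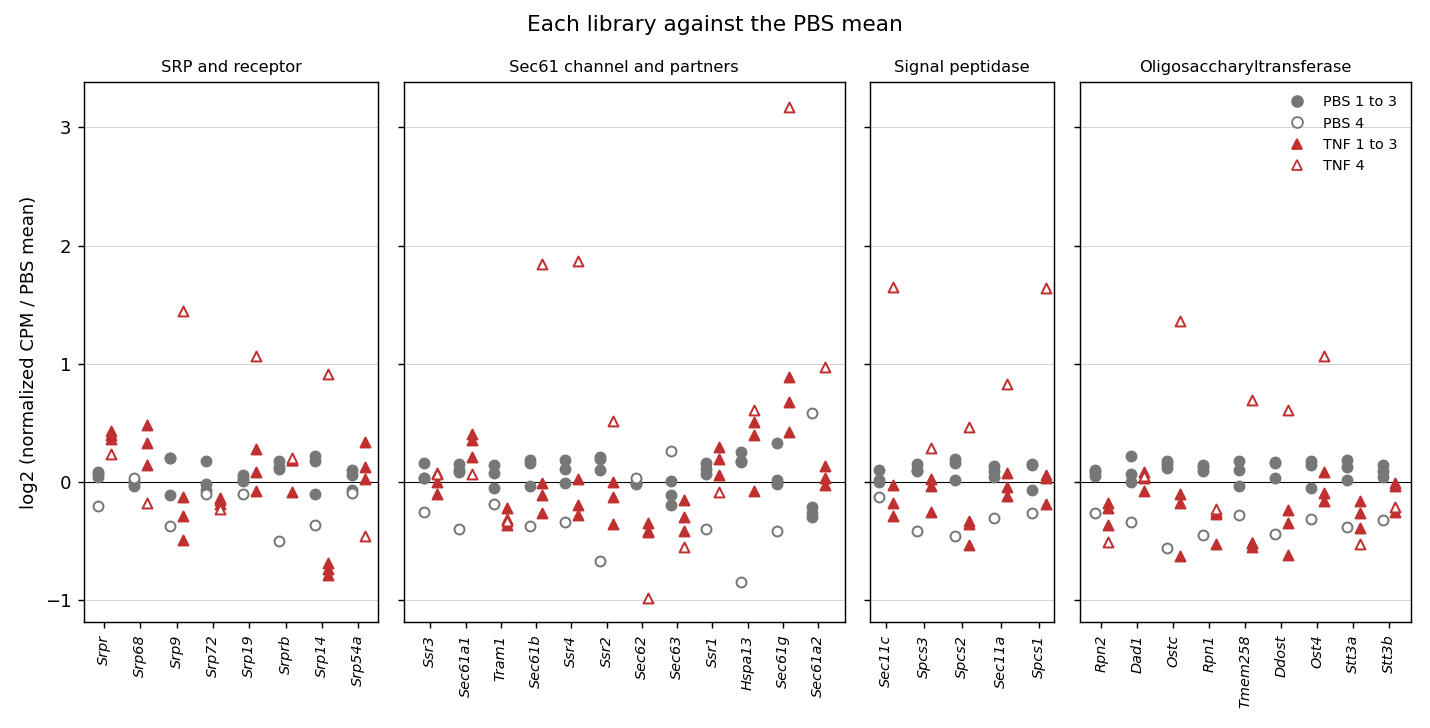
Each point is 1 library, as log2 of its normalized CPM over the PBS mean of that gene (y axis), for the 34 genes by complex. Circles are PBS and triangles TNF, and open symbols are replicate 4 of each group. TNF replicate 4 lies far above the other TNF libraries for Sec61g, Ssr4, Sec61b, Sec11c and Spcs1, and PBS replicate 4 is the lowest PBS library for 30 of 34 genes.

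In signal peptidase 0 of 5 genes were called by edgeR (43% of all tested genes), by DESeq2 or by limma-voom. By edgeR 0 of them had an unadjusted p under 0.05, against 6759 of all 13368 tested genes. The median log2 fold change was 0.23, with values from -0.13 to 0.59. Sec11c and Sec11a are its alternative catalytic subunits. Sec11c had 117, 125, 116 and 106 in PBS and 103, 114, 95.1 and 363 in TNF. Sec11a had 39.1, 40.6, 41.6 and 30.7 in PBS and 36.9, 40.1, 34.98 and 67.4 in TNF. For both, TNF replicates 1 to 3 lay within or just below the PBS range and TNF replicate 4 above it. Sec11c counts were 3.08 ± 0.281 times Sec11a counts in PBS and 3.43 ± 1.30 times in TNF (SD, n = 4), with 5.38 in TNF replicate 4 and 2.72 to 2.84 in the others. The log2 ratio differed by 0.10 (exact permutation p = 0.943, adjusted 0.943).

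The noncatalytic subunits Spcs1, Spcs2 and Spcs3 had log2 fold changes of 0.59, -0.13 and 0.02. Spcs3, needed for the complex's activity, was 159 to 236 in PBS and 177 to 258 in TNF, with a 95% interval of -0.35 to 0.39. Without TNF replicate 4 all 5 signal peptidase genes had negative values, from -0.39 to -0.01, and Spcs2 alone was called (-0.39, adjusted p = 0.0467 by edgeR).

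In oligosaccharyltransferase 0 of 9 genes were called by edgeR (43% of all tested genes), by DESeq2 or by limma-voom. By edgeR 1 of them (Rpn2) had an unadjusted p under 0.05, against 6759 of all 13368 tested genes. The median log2 fold change was -0.12, with values from -0.33 to 0.33. Stt3a and Stt3b are the catalytic subunits of its alternative forms, the first working with the channel during translation and the second on sites that were missed. Stt3a had 234, 225, 209 and 158 in PBS and 185, 172, 157 and 144 in TNF. Stt3b had 123, 118, 127 and 92.3 in PBS and 112, 114, 96.4 and 99.4 in TNF. Both overlapped between groups through PBS replicate 4, and the log2 fold changes were -0.33 (adjusted p = 0.106 by edgeR) and -0.12 (adjusted p = 0.48). Stt3b counts were 0.561 ± 0.0425 of Stt3a counts with PBS and 0.644 ± 0.0409 of them with TNF (SD, n = 4), a log2 difference of 0.20 (exact permutation p = 0.0571, adjusted 0.286).

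The large core subunits Rpn1 and Rpn2 had log2 fold changes of -0.32 each. Rpn2 had 372, 388, 382 and 301 in PBS and 309, 318, 280 and 253 in TNF, where only PBS replicate 4 overlapped TNF (adjusted p = 0.0982 by edgeR). Rpn1 was 257 to 266 in PBS replicates 1 to 3 and 177 in PBS replicate 4, against 168 to 205 in TNF (adjusted p = 0.129). Without PBS replicate 4, Rpn1 (-0.48, adjusted p = 0.016), Stt3a (-0.47, adjusted p = 0.0297) and Tram1 (-0.40, adjusted p = 0.0387) were called lower. Dad1, a small core subunit, changed by 0.02 with an interval of -0.27 to 0.31.

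Of the remaining small subunits, Ostc, which links the Stt3a form to the channel, and Tmem258 had log2 fold changes of 0.33 and -0.13. Tmem258 was 23.3 to 32.0 in PBS, and in TNF it was 19.3, 19.8, 19.8 and 45.9. TNF replicates 1 to 3 lay below PBS and TNF replicate 4 above it, and without that library Tmem258 was called lower (-0.51, adjusted p = 0.00389 by edgeR). Ost4 (0.31) and Ddost (-0.07) were not called in either fit.

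Short genes of the set were high in TNF replicate 4. Relative to the mean of the other TNF libraries, Sec61g was 5.48-fold, Ssr4 4.02-fold, Sec61b 3.90-fold, Sec11c 3.48-fold and Srp9 3.31-fold in that library. With a limit of 600 coding bases, chosen after these values were seen, 10 of 16 shorter genes were over 2-fold there and 1 of 18 longer ones (Ddost, 2.00-fold). The median log2 ratio was 1.42 in the shorter and -0.14 in the longer genes. Over all tested protein-coding genes, 487 of 1506 shorter and 420 of 10168 longer ones were over 2-fold, with medians of 0.63 and -0.07. Spearman's rho with coding length was -0.75 across the 34 genes and -0.34 across 11674 tested protein-coding genes. These points share 1 library and genes are not independent, so no p is given. In that library alpha-defensin genes, Lyz1 and Itln1 also took the largest share of counts, and the part of this in the values was not tested.

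**Figure D4:**
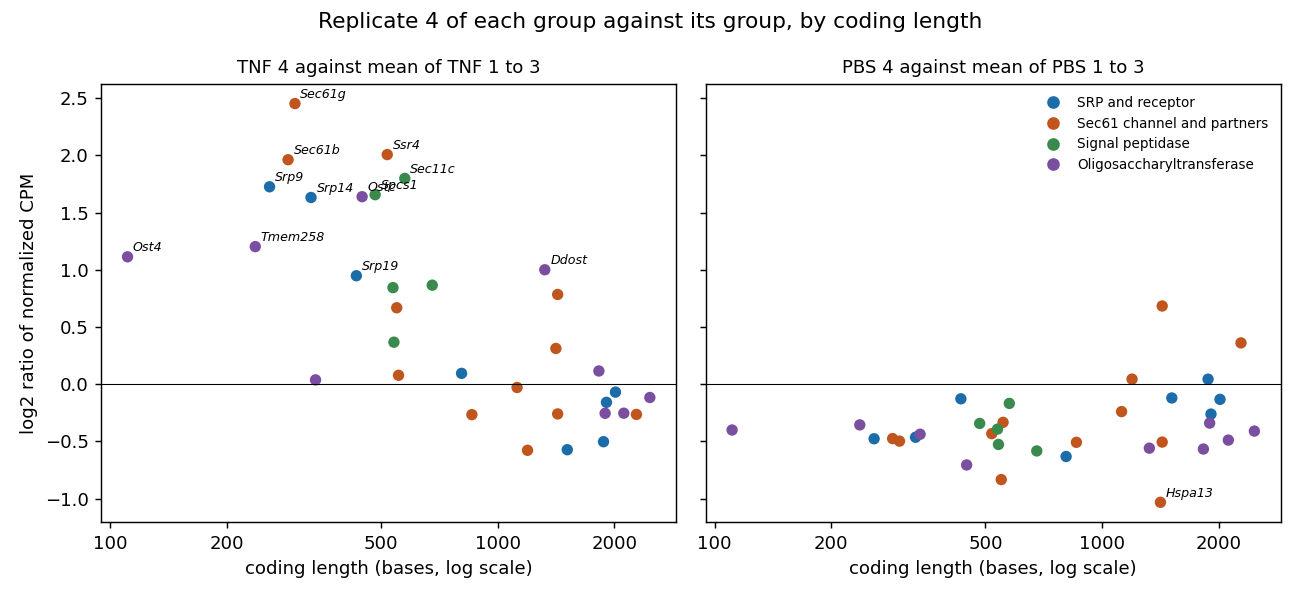
Coding length in bases (x axis, log scale) against the log2 ratio of normalized CPM in replicate 4 to the mean of replicates 1 to 3 of its group, for TNF (left) and PBS (right), 1 point per gene. In TNF the genes under 600 bases reach 2.45 (Sec61g), with a median of 1.42, and in PBS most genes lie below 0 at any length.

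PBS replicate 4 was low for most genes of the set, short and long. It was below the mean of the other PBS libraries for 30 of 34 genes, while over the tested protein-coding genes 5845 were below and 5824 above. Hspa13 was lowest there, at 0.489 of the others. Spearman's rho with coding length was 0.24 in that library, and 0.41 over the 11674 protein-coding genes. The median log2 ratio was -0.44 in the shorter and -0.38 in the longer genes of the set, and -0.23 and 0.03 over the protein-coding genes.

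Leaving out TNF replicate 4 narrowed the intervals of the set. Then 32 of 34 intervals (94.1%) lay within 2-fold, against 57.6% of all tested genes, and 22 (64.7%) within 1.5-fold, against 27.3%. In that fit 8 of 34 genes (23.5%) were called, against 50.4% of all tested genes. Srpr, Sec61g and Srp68 were higher, and Sec62, Srp14, Tram1, Spcs2 and Tmem258 were lower. The estimate changed sign for 10 of 34 genes between the fits with and without this library, none of them called with all libraries.

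Genes of the same pathway outside the set were listed as well: other OST subunits, synthesis of the lipid-linked glycan donor, trimming of the attached glycan, and other insertion routes into the ER membrane. Of 54 listed, 53 were found (Alg10b was not), and 52 were tested. The test called 14 of 52 (26.9%), 5 higher (9.62%) and 9 lower (17.3%), against 43% of all tested genes, 23.4% higher and 19.6% lower. All 14 were also called in the same direction without TNF replicate 4, where 21 of 53 (39.6%) were called, against 50.4% of all tested genes.

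Of 21 donor synthesis genes 7 were called (33.3%, against the 43% of all tested genes), 3 higher and 4 lower. Nus1 and Dolpp1 had the largest rise and the largest fall among the 52 related genes. Nus1, a subunit of the enzyme that makes the dolichol precursor, had 47.5, 46.0, 41.0 and 45.7 in PBS and 102, 120, 100 and 83.6 in TNF. In normalized CPM all TNF libraries were far above all PBS libraries (log2 fold change 1.17, SE 0.13, adjusted p = 4.16e-05 by edgeR). Scaled by library size alone, neither Nus1 nor any other related gene was called higher, where 757 of all genes were. Alg2, a mannosyltransferase (0.56, adjusted p = 0.0152), and Dpagt1, which starts the glycan on dolichol (0.40, adjusted p = 0.0414), were also higher. Dolpp1, a phosphatase that recycles the lipid carrier, had 7.56 to 9.70 in PBS and 3.26 to 4.68 in TNF, without overlap (-1.11, SE 0.16, adjusted p = 0.000283). The mannosyltransferase Alg12 (-0.71) was lower too.

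Glycan trimming had no positive value among its 5 genes, with a median log2 fold change of -0.28. Of these 2 were called (40%), a share near the 43% of all tested genes. Uggt1, which reglucosylates unfolded glycoproteins, had 203, 202, 197 and 165 in PBS and 133, 134, 116 and 117 in TNF (-0.62, adjusted p = 0.00219 by edgeR). Mogs, the glucosidase that removes the first glucose, had 60.1, 59.2, 60.7 and 41.7 in PBS and 36.7, 36.8, 29.2 and 35.1 in TNF (-0.69, adjusted p = 0.0030). Neither gene overlapped between groups, and nor did Ganab and Prkcsh, which makes 4 of 5 genes against 42.1% of all tested genes. Ganab, Prkcsh and Man1b1 were at -0.28, -0.25 and -0.11 and were not called. Without TNF replicate 4 Ganab was called lower (-0.27, adjusted p = 0.0447 by edgeR).

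Of the 3 other OST subunits, Magt1, the oxidoreductase of the Stt3b form, was lower (-0.34, adjusted p = 0.0221 by edgeR). Other insertion routes had 2 of 23 higher and 2 lower (17.4% called, against 43% of all tested genes). Emc6, of the ER membrane complex, had 14.3 to 18.1 in PBS and 28.3 to 50.7 in TNF (1.05, adjusted p = 0.00129). Mmgt1 of the same complex was higher (0.37), and Emc9 (-0.71) and Ccdc47 (-0.37) were lower.

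For comparison, 6 of 15 ER folding genes (40%) were called in the same fit, a share near the 43% of all tested genes, and 8 of 15 without TNF replicate 4, where 50.4% of all tested genes were called. Hspa5, the chaperone BiP, was higher (0.61, adjusted p = 0.0357 by edgeR), and Hsp90b1 (-0.67), Dnajc3 (-0.49), Pdia4 (-0.77), Pdia6 (-0.54) and Creld2 (-0.61) were lower. Of these 6 genes, all but Pdia4 carry the ERSE matches printed above, and those genes moved in both directions. RefSeq promoters were found for 13 of the 15 ER folding genes, and it is not given whether Pdia4 was among them.

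**Figure D5:**
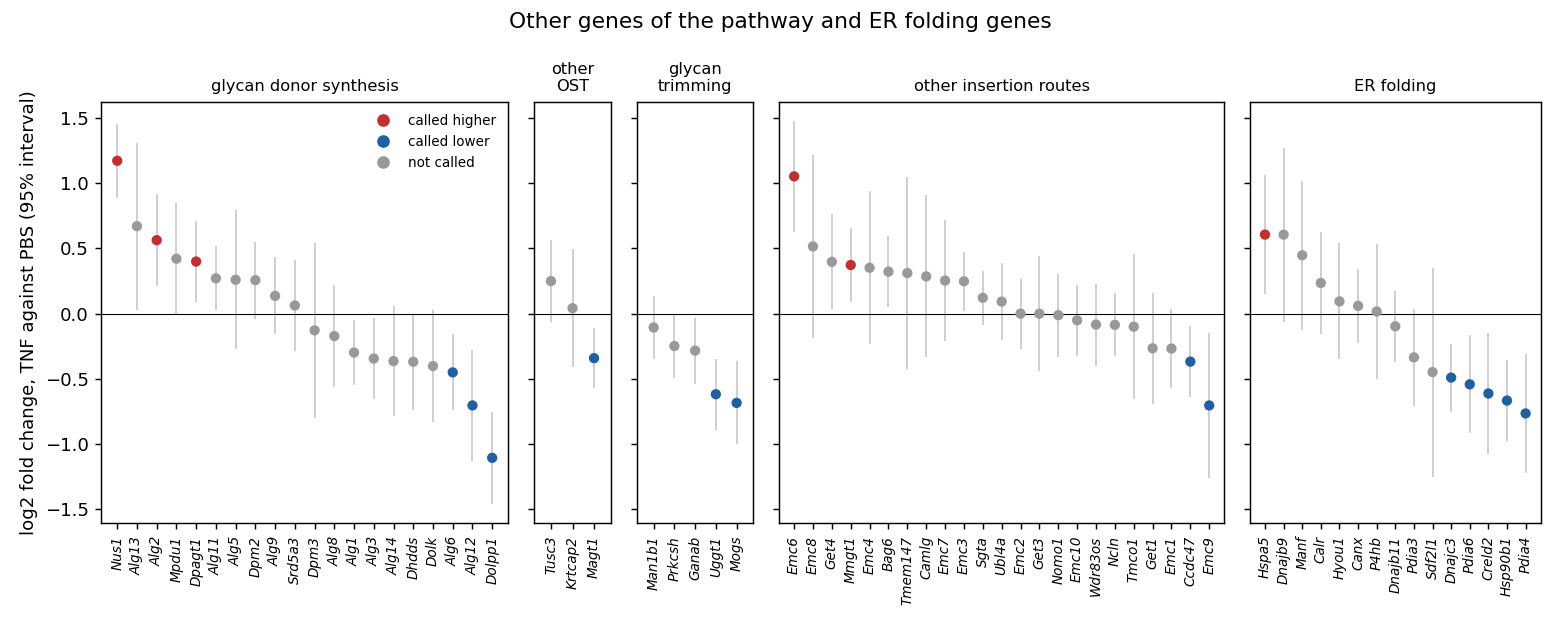
Log2 fold change of TNF against PBS (y axis, bars 95% intervals, all 8 libraries) for other genes of the pathway that were tested, 1 of them not drawn, and 15 ER folding genes, by list; red is called higher, blue called lower and grey not called. Nus1 and Emc6 lie above 1, Dolpp1 below -1, and all 5 glycan trimming genes lie below 0.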

How the data were processed

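The authors deposited raw counts per Ensembl gene for 8 mouse libraries, with no normalization. Per the labels, extraction used the Aurum Total RNA Mini kit and library preparation the stranded mRNA kit of TruSeq. The submitters' processing notes name FastQC 0.12, STAR 2.7.10a, DESeq2 and the mm39 build. The sources used here do not give the counter, its annotation, its use of strand or its treatment of shared reads. The members and all gene lists, pairs and motifs were chosen with earlier results of these data known.

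IDs were named from GENCODE release 39 (GRCm39, 54749 of 55414 matched), and Srpr was matched through a RefSeq synonym. Genes were tested with edgeR 4.0.16 in R 4.3.3 (quasi-likelihood F test, TMM, filterByExpr, no covariate), with Benjamini-Hochberg adjustment over all genes tested. SEs come from the F statistic. Levels per kb use the shortest well-supported coding transcript of a gene, and coding length the longest coding part among those used. Ratios of paired subunits used counts plus 0.5 in a two-sided exact permutation test over 70 assignments. Values per library are given for called genes (up to 6 in each direction), the 5 pairs and the 4 genes highest per kb. For the related lists, the rule takes up to 3 called genes with the smallest p in each direction. Values per library of other genes were added after they were seen. A listed gene that the rule names and a marker are not reported here. Promoters are those of RefSeq (GRCm38.p6), placed on GRCm39 by exact match. No pair of libraries of a group agreed within sampling noise (chi-square per degree of freedom at least 8.77), so none was treated as a duplicate.

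The procedure was tested on simulated counts. Alternatives were 3 other scalings (RLE, none beyond library size, and TMM without the main Paneth cell products), 2 other filters on low counts, DESeq2 1.42.0, limma-voom (limma 3.58.1), a block of the replicate number, a limit of 0.01 on the adjusted p, a pseudocount of 5 and leaving out each library. Summed Srp54 copies and the CCACGT search were added after the data were seen.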

Additional observations from a re-analysis of the deposited data

Results flagged for a closer look

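In each group of 4 libraries, the gap of the highest or lowest value to its nearest neighbor was divided by the group's range and compared with Dixon's 95% critical value. Of 78 groups of values (the 34 genes and 5 ratios in PBS and in TNF), 29 exceeded it, where chance flags about 1 in 20. The lone library was TNF replicate 4 in 16, PBS replicate 4 in 11 and TNF replicate 3 in 2.

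TNF replicate 4 was the lone high value for Ssr4 (662 normalized CPM), Sec11c (363), Sec61b (330), Ostc (224), Spcs2 (219), Spcs1 (201), Srp9 (161), Ost4 (91.7), Sec61g (72.0), Srp14 (70.9), Sec11a (67.4), Tmem258 (45.9) and Sec61a2 (3.86). The lone low value there was Sec62 (70.8). In the same library the ratio of Sec11c to Sec11a was 5.38 and that of Sec61a2 to Sec61a1 was 0.0111.

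PBS replicate 4 was the lone low value for Sec61a1 (255 normalized CPM), Srpr (199), Rpn1 (177), Spcs3 (159), Ssr2 (65.7), Ostc (58.9), Srprb (35.2) and Hspa13 (23.5), and the lone high value for Sec61a2 (2.94). Its ratio of Sec61a2 to Sec61a1 was 0.0116 and its ratio of Srprb to Srpr was 0.177. TNF replicate 3 was the lone low value for Rpn1 (168) and Srprb (47.2).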

How the results depend on the processing

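Sec62 kept its direction in every alternative and its call in all but library size alone (-0.85, adjusted p = 0.0967 by edgeR) and a limit of 0.01 (adjusted p = 0.0140). Sec61g stayed higher in each alternative that gave a value, but was not called under library size alone (0.96, adjusted p = 0.0503), limma-voom (1.20, adjusted p = 0.0594), the replicate block (1.25, adjusted p = 0.116) or a limit of 0.01. DESeq2 gave Sec61g no p, so it could not enter the DESeq2 count of called members, and its absence there is not an ordinary failure of the test. Srpr was called under DESeq2, limma-voom and the filter of 1 CPM in 4 libraries, and not under RLE scaling, scaling without the main products, no filter, the block, a limit of 0.01 or library size alone.

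Called members numbered 2 higher and 1 lower. The higher count was 1 under RLE scaling, scaling without the main products, no filter, DESeq2 and limma-voom, 0 under library size alone, the replicate block and a limit of 0.01, and 0 to 3 when 1 library was left out. The lower count was 2 under DESeq2 and limma-voom, where Tram1 joined Sec62, 0 at a limit of 0.01 and 1 to 5 when 1 library was left out. Without PBS replicate 4 it was 4, and without TNF replicate 4 it was 5. Of all tested genes, in both directions, 42.8% were called under RLE scaling, 42.6% under scaling without the main products and 24.9% with no filter. DESeq2 called 35.2%, limma-voom 44.3%, library size alone 23.8% and the replicate block 38.1%, and the limit of 0.01 gave 29.2%. Leaving out 1 library gave 35.1% to 50.4%, with 41.3% without PBS replicate 4 and 50.4% without TNF replicate 4. Under library size alone the 1 lower gene was Srp14 (-0.76, adjusted p = 0.0443 by edgeR). No clear pairing by replicate number was seen: same-numbered deviations correlated by 0.02, 0.07, -0.14 and -0.13, and 2 of 4 numbers correlated best with their own. With only 4 numbers this check cannot exclude pairing. With the replicate block 5087 of all genes were called.

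Called related genes numbered 5 higher and 9 lower. The higher count was 3 under RLE scaling, scaling without the main products, no filter and DESeq2, 0 under library size alone, 2 at a limit of 0.01 and 2 to 7 when 1 library was left out. The lower count was 4 at a limit of 0.01 and 6 to 14 when 1 library was left out. The shares of all tested genes called in these settings are those given above for the members. Library size alone shifted the median of all genes by -0.40, to -0.38 (members -0.30), and called 3182 of all genes, 757 of them higher (23.8% of calls, against 54.3%).

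Under library size alone 21 members changed sign: Srp9 (-0.29), Srp19 (-0.12), Srp54a (-0.28), Srp68 (-0.12), Srpr (-0.0016), Srprb (-0.25), Sec61a1 (-0.077), Sec61a2 (-0.23), Sec61b (-0.046), Ssr1 (-0.22), Ssr2 (-0.42), Ssr3 (-0.38), Ssr4 (-0.056), Hspa13 (-0.019), Spcs1 (-0.054), Spcs3 (-0.40), Sec11a (-0.26), Sec11c (-0.15), Dad1 (-0.35), Ost4 (-0.23) and Ostc (-0.31). Values near 0 turned under no filter for Ssr2 (-0.019), Ssr3 (-0.038), Spcs3 (-0.039) and Dad1 (-0.024). Ssr3 and Spcs3 also turned under RLE scaling (-0.0046 and -0.0011), scaling without the main products (-0.013 and -0.011) and DESeq2 (-0.0086 and -0.0065), and Ssr3 with the 1 CPM filter (-0.0012).

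Leaving out 1 library gave values on both sides of 0 for 17 members. The ranges were -0.28 to 0.57 for Srp9, -0.72 to 0.040 for Srp14, -0.058 to 0.18 for Srp54a, -0.047 to 0.20 for Srprb, -0.11 to 0.88 for Sec61b, -0.024 to 0.20 for Ssr1, -0.17 to 0.16 for Ssr2, -0.10 to 0.065 for Ssr3, -0.13 to 0.89 for Ssr4, -0.012 to 0.79 for Spcs1, -0.14 to 0.10 for Spcs3, -0.0099 to 0.34 for Sec11a, -0.14 to 0.74 for Sec11c, -0.38 to 0.075 for Ddost, -0.11 to 0.10 for Dad1, -0.038 to 0.43 for Ost4 and -0.27 to 0.55 for Ostc. The log2 difference in the ratio of Sec11c to Sec11a ranged from -0.14 to 0.19 and that of Sec61a2 to Sec61a1 from -0.24 to 0.39. The cause of these changes was not tested. A single low ratio of the 5 could not go below an adjusted p of 0.143, nor the sign-flip test with paired numbers below a p of 0.125, so the ratio tests say nothing about stability. Depth limits Sec61a2 most, with 43 counts in PBS replicates 2 and 3.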
